A study of Mus musculus with 4 samples.

Results

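The transcripts described here are 34 of the 18193 genes measured on 4 Affymetrix mouse arrays, and they read higher in both arrays labelled Rhau KO than in both arrays labelled Control. They were chosen by their intensities on these same arrays. On the brightest probe set of a gene, the lower of the Rhau KO values had to be at least 300 and at least 1.8 times the higher of the Control values. Over all genes 45 passed both thresholds, 0.247% of those measured, and 11 of them, which belong to gene groups left out by name, were set aside (Acot1, Acot2, Angpt1, Ctsh, Gstt1, Hspb7, Kcne1, Kcnj14, Pik3r1, Pygb and Rgs2). Since the choice used the Rhau KO and Control values, the difference between these groups is given for the 34 as a description, with no test, and the gap between the groups is a property of the choice. In the other direction, 71 genes read at least 300 in both Control arrays and at least 1.8 times higher than in either Rhau KO array.

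RNA is described as coming from hearts of adult C57BL/6J mice, with 2 arrays for each genotype. The Rhau KO hearts were CAAG-ERT2-Cre;Rhau F/F, which joins floxed Rhau alleles to a Cre recombinase that tamoxifen switches on, and the Control hearts were Rhau F/F, with the floxed alleles and no Cre. Both genotypes received 5 doses of tamoxifen at 2 months of age, and hearts were taken 2 months later. The CAAG promoter that drives this Cre is active in many cell types and not in cardiomyocytes alone, and whether the replicates were separate animals is not stated. The intensities are MAS 5.0 signals, on a linear scale in arbitrary units.

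RHAU, encoded by Dhx36, is a DEAH-box helicase that unwinds G-quadruplexes, the stacked structures that guanine-rich RNA or DNA can form, and it binds mRNAs and alters their stability and translation. A heart holds cardiomyocytes together with endothelial cells, fibroblasts, mural cells, macrophages and nerve fibres, so a transcript measured in heart RNA may come from any of these. The 34 transcripts belong to no single pathway. Several encode factors best known from the nervous system (Bdnf, Nrn1, Efnb3, Epha4, Snap91, Mapk10, Apbb1), others are known from heart muscle (Tnni3k, Fgf16), and others serve cell junctions, cilia and lipid signaling.

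The arrays themselves departed from their labels in 2 ways that bear on every value below. Dhx36, the gene named as deleted, was higher in both Rhau KO arrays than in both Control arrays on its 3 probe sets, the brightest of which read 568 and 537 against 327 and 194 with Rhau KO replicates first. Esr1, the gene of the estrogen receptor from whose ligand-binding domain ERT2 was made, read 5.40 and 25.5 against 18036 and 19847 in the same order on 1 probe set, although the Cre belongs to the genotype labelled Rhau KO. Its 2 other probe sets read 7.90 and 43.8 against 518 and 28.7, and 87.8 and 107 against 1936 and 74.0, with Control replicate 2 not above both Rhau KO arrays. Groups are therefore given by label, and directions hold for the labels only. The other departure was Control replicate 1, whose muscle transcripts differed from those of the other 3 arrays. The 20 measured markers of fast skeletal muscle summed to 733943 there and to 95158 to 98471 in the other 3, and 0 of the 20 read under 100 in it against 9 to 11 in the others. The 21 markers of ventricular cardiomyocytes summed to 304997 in Control replicate 1 and to 756016 to 768464 in the others, with 5 under 100 in that array alone, among them Tnni3 at 10.3 and Mybpc3 at 53.2. Sums of the other markers in Control replicate 1 were lower for endothelial cells (29722 against 52929 to 56888) and macrophages (11659 against 23659 to 25155), higher for adipocytes (58044 against 183 to 1684, with Car3 alone at 56563) and Schwann cells (2241 against 596 to 845, with Mbp alone at 1802), and 94232 against 79139.5 to 90797 for fibroblasts. The median of the 6 Schwann cell markers was lowest in Control replicate 1, at 97.0 against 103 to 146, so their sum and median differ in order. Atrial markers summed to 3668 in it against 15155 to 35249.9, erythroid markers to 241 against 601 to 1003, lymphocyte markers to 509.8 against 787 to 1087, and smooth muscle and pericyte markers to 57618 against 61415 to 68424. The part these cell type differences have in the results was not tested, and values against Control replicate 2 alone are therefore given as well. In heart RNA, fewer cells of a type and less RNA per cell cannot be told apart. In Control replicate 1, Tnni3 at 10.3 stood against 37838 to 39371 in the other 3 arrays. The fast skeletal muscle marker Actn3 read 46180 there against 6.62 to 34.8. That the RNA of this array came from heart rests on its title and was not tested.

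The 34 transcripts read 369 to 4958 in Rhau KO replicate 1 and 304 to 6042 in replicate 2, with medians of 796 and 946. In Control replicate 1 they read 4.70 to 1083 with a median of 109, and in Control replicate 2 they read 107 to 2717 with a median of 355. The mean log2 intensity of the Rhau KO arrays exceeded that of the Control arrays by a median of 2.2 over the 34, from 1.03 for Maged2 to 4.69 for Tnni3k, whose value rests on a reading of 4.70 in Control replicate 1, while the median over all 18193 genes was 0.09. Set against Control replicate 2 alone, the median difference was 1.24 log2 units, and the fold ran from 1.81 (Trabd2b) to 4.54 (Pla2g5). The fold of Pla2g5 rests on a reading of 111 in Control replicate 2, near the lowest of the 34 there, with no detection call. Against Control replicate 1 alone, the median was 2.87, and the smallest fold was 2.08 (Sybu). No largest fold is given, since 14 transcripts read under 100 in that array and no detection call used here says whether such readings were above background. Both Rhau KO values lay above both Control values for 34 of the 34, as the choice requires, and for 21.7% of all genes.

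**Figure D1:**
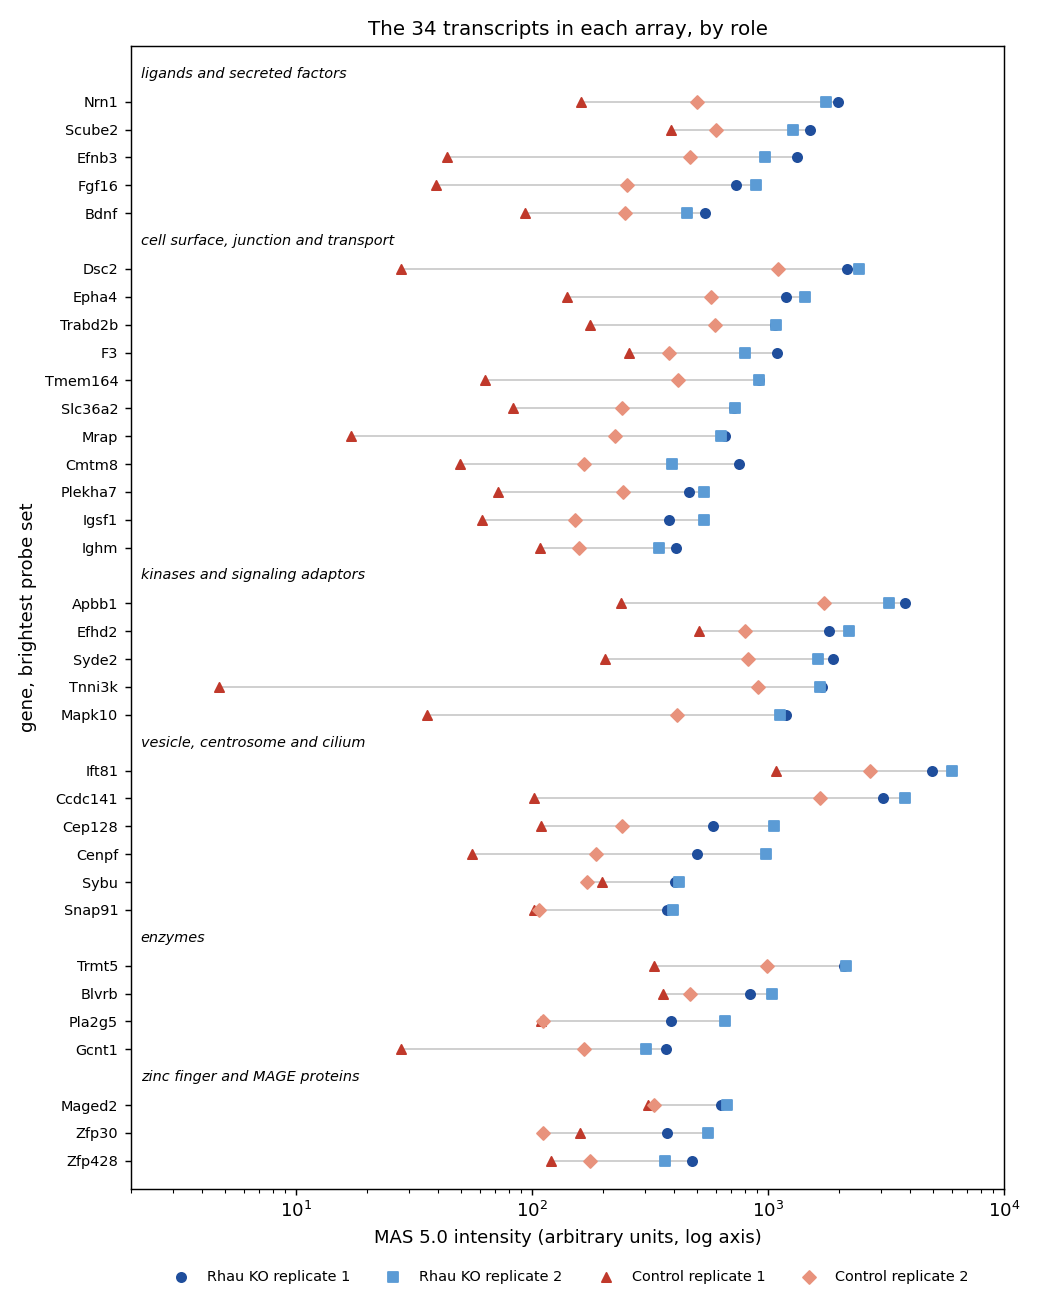
MAS 5.0 intensity (arbitrary units, log axis) of the 34 transcripts on their brightest probe sets, 1 symbol per array, grouped by role, with Rhau KO arrays drawn blue and Control arrays drawn red. The blue symbols of a gene lie to the right of its red ones by the choice of genes, and Control replicate 1 (dark red triangles) is the lowest array for 32 of the 34, down to 4.70 for Tnni3k.

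Because RHAU unwinds G-quadruplexes, the promoters of these genes were searched for the sequence motif of such a structure, defined as 4 runs of at least 3 G separated by loops of 1 to 7 bases, on either strand of the 250 bases before each RefSeq start (build GRCm38.p6). RefSeq windows were matched for 23 of the 34 genes, 42 windows in all, and 13 of the 23 genes (56.5%) held the motif in at least 1 window, against 25.2% of 14452 genes on the array. By window, 35.7% of those of the 34 genes held it, against 22.2% of the 18109 windows of all genes on the array and 16.7% of all 32851 windows of the table. Bdnf alone has 7 of the windows, and without it the share by window was 34.3%. A gene with several windows has more places for a match, so shares by gene also reflect the number of windows. That number was 42 for the 23 genes and 18109 for the 14452 genes on the array. The median GC content of the windows was 56% for these genes and 57.6% for all genes on the array. For 6 of the 13 genes the G runs lay on the strand of the gene. This count was not made over all genes, so it has no share to be set against. These shares are a description with no test, a match is not a structure, and a promoter is DNA whereas the arrays measured RNA. The windows of Scube2, F3 and Snap91 are shown as examples of the 13 with the motif, and that of Epha4 because the motif is on the gene strand of a receptor described below. Capitals mark the motif, and on the Snap91 line they are runs of C, since its G runs are on the other strand.
Scube2, chr7:109865680-109865929, minus strand: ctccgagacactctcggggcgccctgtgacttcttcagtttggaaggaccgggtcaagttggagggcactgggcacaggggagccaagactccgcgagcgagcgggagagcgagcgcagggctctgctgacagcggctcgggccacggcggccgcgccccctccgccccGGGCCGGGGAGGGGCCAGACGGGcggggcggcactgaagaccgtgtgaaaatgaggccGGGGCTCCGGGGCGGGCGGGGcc
F3, chr3:121723287-121723536, plus strand: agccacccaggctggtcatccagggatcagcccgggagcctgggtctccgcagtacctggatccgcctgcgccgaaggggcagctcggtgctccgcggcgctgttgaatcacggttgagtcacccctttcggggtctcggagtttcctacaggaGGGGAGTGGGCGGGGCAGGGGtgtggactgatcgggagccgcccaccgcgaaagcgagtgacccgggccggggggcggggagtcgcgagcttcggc
Snap91, chr9:86880709-86880958, minus strand: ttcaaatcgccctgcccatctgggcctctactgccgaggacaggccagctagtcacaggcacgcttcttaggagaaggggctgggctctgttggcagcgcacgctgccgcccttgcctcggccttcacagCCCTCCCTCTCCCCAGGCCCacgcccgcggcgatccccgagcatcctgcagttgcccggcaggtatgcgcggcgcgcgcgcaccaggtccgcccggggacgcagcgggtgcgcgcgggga
Epha4, chr1:77515089-77515338, minus strand: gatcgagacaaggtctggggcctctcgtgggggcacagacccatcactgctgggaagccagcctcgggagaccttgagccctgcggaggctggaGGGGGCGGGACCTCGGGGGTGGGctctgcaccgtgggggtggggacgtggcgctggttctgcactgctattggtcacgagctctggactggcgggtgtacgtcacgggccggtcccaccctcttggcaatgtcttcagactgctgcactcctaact
The Scube2 window holds the motif at 2 places, from 81 to 59 and from 23 to 3 bases before the start, that of F3 from 96 to 76, that of Snap91 from 120 to 101 and that of Epha4 from 156 to 134. Runs of G overlap the GC box GGGCGG, which was found in 38.1% of the windows of these genes and 48.3% of those of all genes on the array, but by gene in 60.9% against 53.4%. The TATA box TATAAA lay in 7.14% and 8.81% of windows and, by gene, in 13% and 10.5%, so neither box has the same order on both counts. The E-box CACGTG (7.38% of windows of genes on the array), the estrogen-related receptor element TCAAGGTCA (0.32%), the MEF2 site (0.105%), the DR1 repeat of nuclear receptors (0.0387%) and the palindromic estrogen response element (0.0221%) were found in 0 of the 42 windows.

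Among ligands and secreted factors, 5 genes met the thresholds, and the widest gap of all 34 belonged to Nrn1. Nrn1 encodes neuritin, a membrane-anchored protein that promotes neurite outgrowth, and it read 1985 and 1764 in Rhau KO replicates 1 and 2, 162 in Control replicate 1 and 499 in Control replicate 2. Its lower Rhau KO value was 3.54 times its higher Control value. On the log2 scale the mean of the Rhau KO arrays was higher by 2.72 ± 0.59. The error, as in the values that follow, is the moderated standard error from limma, which also draws on the spread of all other genes. From the 4 values of the gene alone it was 0.82 for Nrn1, 3.80 for Tnni3k and 0.053 for Snap91, against 0.59, 2.53 and 0.31 by limma. Bdnf, the brain-derived neurotrophic factor, read 540.1 and 454 against 93.8 and 249, so that it lay near the threshold of the choice in Control replicate 2 and under 100 in Control replicate 1. Fgf16, a fibroblast growth factor made by cardiomyocytes, read 734 and 886 against 39.1 and 253, higher by 3.02 ± 0.94 log2 units. Efnb3, a membrane-bound ligand of Eph receptors, read 1333 and 972 against 43.7 and 469. Both genes were under 100 in Control replicate 1. Scube2, a secreted protein that helps release Hedgehog ligands, differed less between the Control arrays and read 1503 and 1278 against 387 and 604, higher by 1.52 ± 0.31 log2 units. Against Control replicate 2 alone, Fgf16 was 3.19-fold, Efnb3 2.43-fold, Nrn1 3.75-fold, Scube2 2.29-fold and Bdnf 1.99-fold higher.

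The largest group was that of cell surface, junction and transport proteins, with 11 genes. Epha4, a tyrosine kinase receptor of ephrins, read 1187 and 1429 against 140.1 and 576, higher by 2.20 ± 0.72 log2 units, so an ephrin ligand and an Eph receptor were both among the 34. Dsc2, the desmosomal cadherin desmocollin-2 of the intercalated disc, read 2167 and 2424 against 27.9 and 1107, 2.07-fold above Control replicate 2. In Control replicate 1 other desmosome genes were low too, as given below. Plekha7, a protein of adherens junctions, read 465 and 537 against 72.0 and 242. Slc36a2, a proton-coupled transporter of small amino acids, was nearly equal in both Rhau KO arrays at 718 and 721 and read 82.9 and 240.3 in the Control arrays, higher by 2.35 ± 0.58 log2 units. Mrap, the accessory protein that brings the adrenocorticotropic hormone receptor to the cell surface, read 659 and 630.4 against 17.0 and 224, so the Control arrays were over 10-fold apart. F3, tissue factor, which starts the extrinsic pathway of blood coagulation, read 1087 and 797 against 258 and 383, higher by 1.57 ± 0.34 log2 units. In F3 the Rhau KO arrays were 1.36-fold apart and the Control arrays 1.49-fold apart, both less than the 2.08-fold gap between the groups. Trabd2b, a membrane metalloprotease that inactivates Wnt ligands, read 1069 and 1078 against 177 and 594. Cmtm8 and Igsf1 are membrane proteins, the latter of the immunoglobulin superfamily. Cmtm8 read 751 and 393 against 49.3 and 166, with the Rhau KO arrays 1.91-fold apart, and Igsf1 read 379.6 and 534 against 61.2 and 153. Tmem164, a transmembrane protein, was nearly equal in the Rhau KO arrays at 918 and 919 and read 63.0 and 417 in the Control arrays. Ighm, the heavy chain of immunoglobulin M and a marker of B lymphocytes, read 407 and 345 against 108 and 159. Of the 9 lymphocyte markers measured, 7 read under 100 on every array, and the other probe sets of Ighm are given below. Against Control replicate 2 alone the folds of this group ran from 1.81 (Trabd2b) to 3.28 (Cmtm8).

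The 5 kinases and signaling adaptors included 2 genes under 100 in Control replicate 1, Tnni3k and Mapk10. Tnni3k, a cardiac kinase that binds troponin I, read 1695 and 1668 in the Rhau KO arrays, 4.70 in Control replicate 1 and 907 in Control replicate 2. The mean difference of 4.69 ± 2.53 log2 units rests on the reading of 4.70 and became 3.21 with a pseudocount of 32, beside 3.15 for Dsc2. The fold against Control replicate 2 was 1.85. Mapk10, the JNK3 kinase of the stress-activated MAP kinase family, read 1190.0 and 1128 against 36.0 and 410.3, 2.82-fold above Control replicate 2. Apbb1, the adaptor FE65 that binds the amyloid precursor protein, read 3793 and 3266 against 238 and 1730.2. Syde2 read 1879 and 1632 against 204 and 824. Efhd2, the calcium-binding protein swiprosin-1, differed by 1.57-fold between the Control arrays and read 1820.0 and 2201 against 510.4 and 799, higher by 1.65 ± 0.31 log2 units.

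Genes of vesicle traffic, centrosome and cilium numbered 6. Snap91, the clathrin assembly protein AP180, differed by 1.06-fold within the Rhau KO arrays and 1.05-fold within the Control arrays, at 375 and 396 under the Rhau KO label and 102 and 107 under the Control label, higher by 1.89 ± 0.31 log2 units. Sybu, syntabulin, which links vesicles to kinesin, read 404 and 418 against 197 and 172, and here Control replicate 1 was the higher Control array. Ift81, a subunit of the intraflagellar transport complex B that carries tubulin into cilia, read 4958 and 6042 against 1083 and 2717. Cep128, a centriole protein, read 586 and 1058 against 109 and 242, and Cenpf, a kinetochore protein of dividing cells, read 498 and 979 against 55.8 and 187. Both were about as far apart between the Rhau KO arrays (1.8-fold and 1.97-fold) as the smallest gap the choice allows, with replicate 2 the higher in each. Ccdc141, a coiled-coil protein, read 3058 and 3823 against 102 and 1665, 2.05-fold above Control replicate 2.

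The 4 enzymes act in lipid, heme, RNA and glycan metabolism. Pla2g5, a secreted phospholipase A2 that releases fatty acids from membrane phospholipids, read 387 and 657 against 109 and 111, higher by 2.20 ± 0.39 log2 units. The Control arrays were within 1.02-fold of each other and the Rhau KO arrays 1.70-fold apart, so the spread was on the high side. Trmt5, a tRNA methyltransferase, read 2095 and 2133 against 329 and 989.7. Blvrb, biliverdin reductase B of heme breakdown, read 841 and 1035 against 358 and 467, and Gcnt1, which branches O-linked glycans, read 369 and 304 against 27.9 and 166. The zinc finger genes Zfp30 and Zfp428 and the MAGE family gene Maged2 completed the set. Zfp30 read 373 and 556 against 160.2 and 111, with Control replicate 2 the lower Control array, and Zfp428 read 477 and 364 against 121 and 176. Maged2 had the smallest mean difference of the 34 with an even spread, at 632 and 673 against 309 and 327, higher by 1.03 ± 0.25 log2 units.

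The choice of genes sets a limit on the higher Control value and does not say which array holds it. The order of the Control arrays is given as a description, since it comes from the same values. Control replicate 1 was the lower of them for 32 of the 34 transcripts (94.1%), the exceptions being Sybu and Zfp30, and for 57.2% of the 7716 genes with at least 300 in both Rhau KO arrays. It read under 0.5 times Control replicate 2 for 23 of the 34 (67.6%) and for 15.9% of those genes, and under 100 for 14 of the 34 (41.2%) and for 1.66%. With 1 array on each side this order has no replicate error. The median ratio of Control replicate 2 to Control replicate 1 was 3.05 for the 34 and 1.09 for the 7716 genes. For the 23 transcripts the fold of the Rhau KO mean was 5.06 or more over Control replicate 1 and ran from 1.81 to 3.75 over Control replicate 2. For the other 11, namely Blvrb, Efhd2, F3, Ighm, Maged2, Pla2g5, Scube2, Snap91, Sybu, Zfp30 and Zfp428, the folds were 2.08 to 4.62 over replicate 1 and 1.99 to 4.54 over replicate 2. By role, 0 of 3 zinc finger and MAGE genes and 2 of 4 enzymes read under 0.5 times their Control replicate 2 value in Control replicate 1, against 9 of 11 surface and junction genes, and 4 each of 5 ligands, 5 kinases and adaptors and 6 vesicle and cilium genes.

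**Figure D2:**
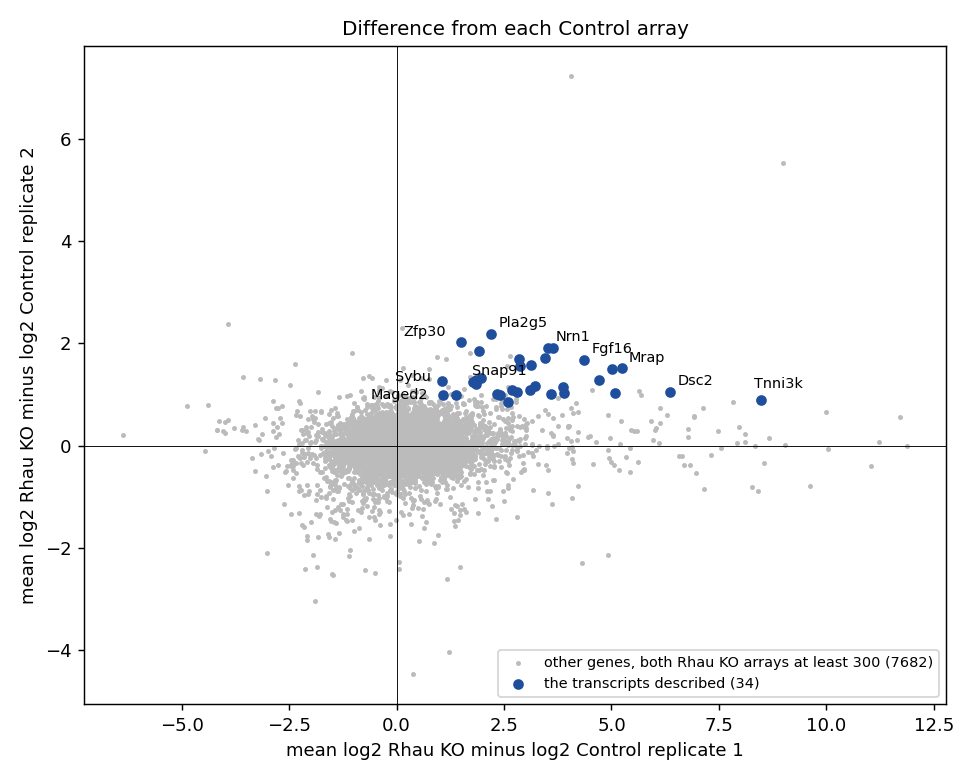
Difference between the mean log2 intensity of the arrays labelled Rhau KO and each Control array for the 34 transcripts (blue) and for the other genes with at least 300 in both Rhau KO arrays (grey, including the 11 set aside by name), with Control replicate 1 on the horizontal and Control replicate 2 on the vertical axis. The 34 spread widely along the horizontal axis, out to Tnni3k, and narrowly along the vertical one, with Pla2g5 highest among the 34.

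**Figure D3:**
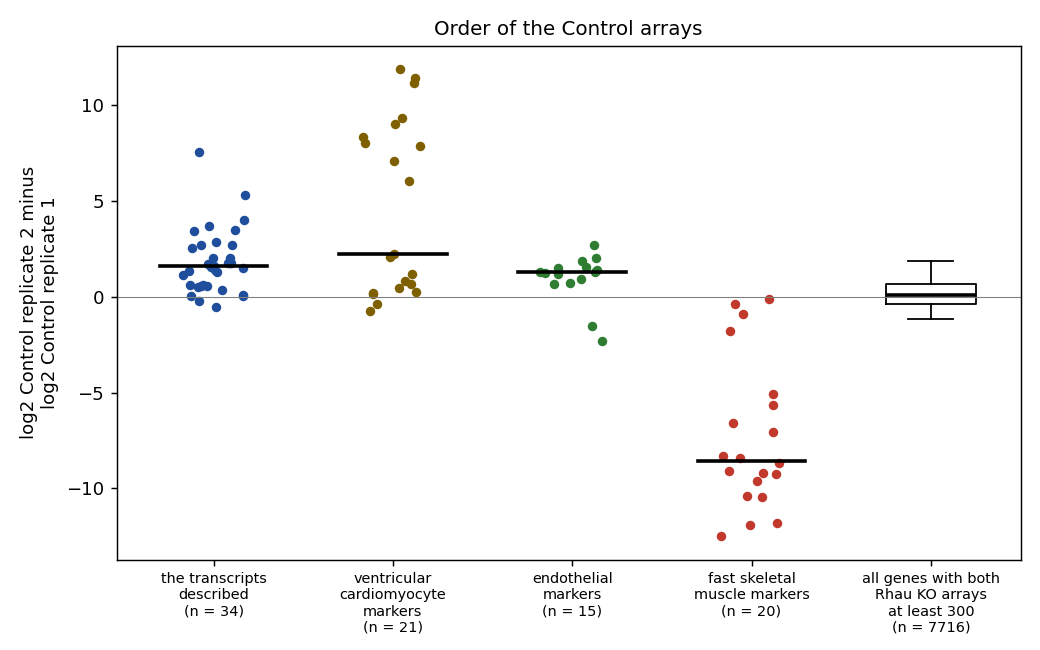
Log2 ratio of Control replicate 2 to Control replicate 1 for the 34 transcripts, 3 marker lists and all genes with at least 300 in both Rhau KO arrays, 1 point per gene with a bar at the median, and for all such genes a box of the quartiles with whiskers at the 5th and 95th percentiles. Most of the 34 lie above 0 and fast skeletal muscle markers lie below it.

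The arrays labelled Rhau KO were further apart for the 34 than for the 7716 genes with at least 300 in both of them. The higher was within 1.25-fold of the lower for 24 of the 34 (70.6%) and for 85.6% of the 7716 genes, and the median ratio was 1.19 against 1.09. The transcripts over 1.25-fold were Cenpf, Cmtm8, Cep128, Pla2g5, Zfp30, Igsf1, Efnb3, F3, Zfp428 and Ccdc141. Rhau KO replicate 2 was the higher for 20 of the 34 and for 50.5% of the 7716 genes.

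More than 1 probe set was assigned to 21 of the 34 genes, and these give a partly separate reading of the same RNA in the same arrays. Of 45 other probe sets, 18 reached 300 in an array, and 16 of these 18, in 12 of 14 genes, read higher in both Rhau KO arrays than in both Control arrays, where 22% of the 5203 such probe sets of all genes did so. These values come from the contrast that chose the genes and are no independent test. Apbb1 read 2899 and 2451 against 245 and 1162 on its other probe set, Mapk10 read 440.5 and 486 against 5.67 and 176, Trabd2b read 1075 and 1025 against 100.3 and 295 and Plekha7 read 426 and 487 against 78.5 and 182, each at least 1.8-fold apart. For Epha4, 3 other probe sets read 1.47-fold, 1.70-fold and 3.46-fold between the lower Rhau KO and the higher Control value, and for Cep128 the 2 brighter ones read 1.84-fold and 2.60-fold. The ones that did not separate the groups belonged to Efhd2 and Ighm. Efhd2 read 441 and 541 against 124 and 503 on its second probe set, with Control replicate 2 between the Rhau KO arrays. One probe set of Ighm read 106 and 88.0 against 987 and 142, the opposite order. It is the lowest of the 10 other probe sets of that gene, which ranged from -1.95 to 2.44 in log2 difference and of which 3 read higher in both Rhau KO arrays than in both Control arrays. On the second probe set of Tnni3k the reading was 752 and 732 against 30.5 and 650.1, so the groups separated by 1.13-fold. Of the 27 probe sets that stayed under 300, 9 read higher in both Rhau KO arrays than in both Control arrays. This count was not made over the dim probe sets of all genes, so it has no share beside it. The second probe set of Snap91 (15.4 and 7.15 against 29.9 and 3.84) was in the dim range and showed no separation.

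**Figure D4:**
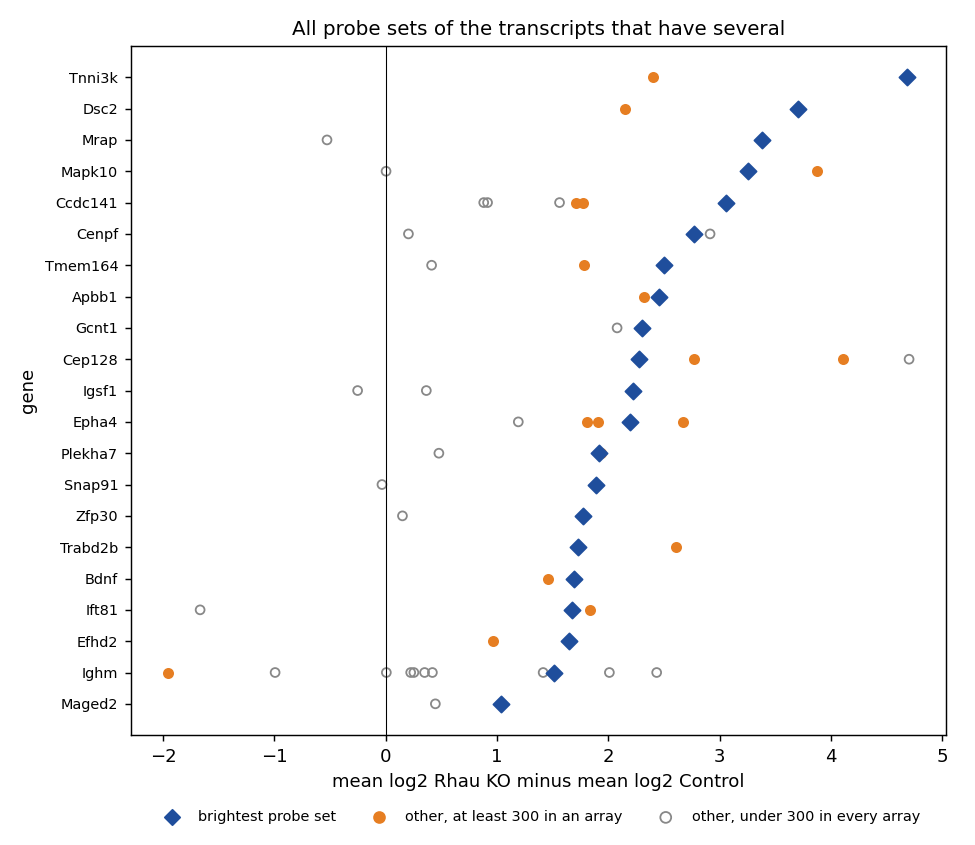
Mean log2 intensity of the arrays labelled Rhau KO minus that of the arrays labelled Control for every probe set of the 21 genes that have several, with the brightest as blue diamonds, others that reach 300 in an array as orange circles and dimmer ones as open grey circles. Among the orange circles only that of Ighm, at -1.95, lies left of 0, while open circles scatter on both sides. The orange circle of Plekha7 is hidden by its diamond.

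At the ratio threshold, Trabd2b (1.8), Blvrb (1.8) and Ift81 (1.82) were just inside and Angptl4 (1.77), Ripply3 (1.77) and Lgals4 (1.76) just outside. Angptl4, an inhibitor of lipoprotein lipase, read 331 and 525 against 181 and 187, so the border divides genes with like values. At the level threshold, Gcnt1, Ighm and Zfp428 had lower Rhau KO values of 304, 345 and 364, and Ggcx, 4930481A15Rik and Ccdc8, with ratios of 1.85, 1.96 and 1.96, had 299, 279 and 257.

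In 10 pathway lists, 5 of which hold a member of the 34 and 5 of which hold none, few other genes passed a test between the groups. Over all 18193 genes, limma called 0 at an adjusted p under 0.05, 785 at an unadjusted p under 0.05, and, where a fold of 2 was also required, 300 higher (1.65%) and 299 lower (1.64%) under the Rhau KO label. Of 285 measured genes in these lists, the 34 left out, 2 were higher and 3 lower at those thresholds, and 0 at an adjusted p under 0.05. Among phospholipases and phospholipid synthesis, the list of Pla2g5, 0 of 35 were higher and 1 lower, the pancreatic phospholipase Pla2g1b with a log2 difference of -2.44 and under 100 on every array. In coagulation and fibrinolysis, the list of F3, 1 of 30 was higher, Plg (plasminogen, 2.79, under 100 on every array), and the median of the 30 was 0.15. In clathrin and SNARE traffic, the list of Snap91, 1 of 32 was higher, Ap2a1 (an adaptor subunit, 1.0), with a median of -0.07. BMP and Hedgehog signaling, the list of Scube2, had 1 of 32 lower, Bmp10 (-1.74, also under 100 on every array), and the 20 EF-hand genes other than Efhd2 had 0 in either direction. Triglyceride and lipid droplet genes had 1 of 29 lower, Fitm1 (-1.38), and 0 passed among 22 genes of ketone body and branched-chain amino acid catabolism, 27 plasma membrane solute carriers, 30 genes of aldehyde, epoxide and xenobiotic oxidation and 28 of cyclic nucleotide and nitric oxide signaling. Medians of these lists lay between -0.07 and 0.48, with 0.09 over all genes, and against Control replicate 2 alone between -0.21 and 0.14, with 0.03 over all genes. The median of the coagulation list was 0.15 over both Control arrays and -0.21 over Control replicate 2, and that of the triglyceride list 0.48 and -0.0034. All 5 calls had an adjusted p = 0.873 from limma. Ap2a1 was no longer called with quantile normalization, median centring, a pseudocount of 32 or the replicate block. Pla2g1b was not called with the pseudocount or the mean of all probe sets. Bmp10 was not called with the pseudocount, the replicate block or the methods' t-test, and Fitm1 was not called by that t-test. Ap2a1, Pla2g1b, Plg and Bmp10 read too low to be among the brighter genes, so that setting did not test them.

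Close relatives of the 34 were listed after the values had been seen and are given with no test. In the ephrin and Eph family, 19 other genes had a median log2 difference of 0.62 over both Control arrays and 0.27 over Control replicate 2 alone. Efna1, another ephrin, read 763 and 807 against 327 and 729, and Ephb4, an Eph receptor of vessels, read 325 and 305 against 87.9 and 261, so both were low in Control replicate 1 while Control replicate 2 lay close to the Rhau KO arrays. The receptor of Bdnf, Ntrk2, read 79.7 and 76.2 against 324 and 51.0, and Sort1, which sorts its precursor, read 1223 and 686 against 1331 and 1338, so neither was higher in both Rhau KO arrays. Of the other fibroblast growth factors and their receptors, 26 genes with a median of 0.11, Fgf9, a close relative of Fgf16, read 298 and 367 against 146 and 238. Mapk8 and Mapk9, which encode the other JNK kinases, read 625 and 660.2 against 697 and 634 and 710.1 and 662 against 506 and 673. The Ift81 partner Ift74 read 234 and 297 against 482 and 239, and the 16 other intraflagellar transport genes had a median of 0.19. The receptor that Mrap serves, Mc2r, stayed in the dim range at 44.9 and 51.6 against 39.1 and 13.1.

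Cenpf and Dsc2 can be set beside other genes of their kind, listed in the same way. Of 22 other proliferation genes, 18 had a higher mean log2 intensity in the arrays labelled Rhau KO, a count not made over all genes. Both Rhau KO values lay above both Control values for 4 of the 22, against 21.7% of all genes, and below both for 2. The median log2 difference of the 22 was 0.53 over both Control arrays but -0.11 over Control replicate 2 alone. With Cenpf, 14 to 19 of the 23 read under 100 on an array. Mki67, the proliferation antigen Ki-67, read 95.6 and 94.2 against 2.21 and 155. Desmosome genes were low in Control replicate 1 as a group, with a sum over 11 genes of 2577 there and 52499 to 62155 in the other 3 arrays. Dsp, desmoplakin, read 28459.8 and 30968 against 28.4 and 31209, and Dsg2, desmoglein-2, read 6159.7 and 8221 against 58.9 and 4826. Besides Dsc2, Dsg2 was the only desmosome gene with both Rhau KO values above both Control values, while 2 had both below. Without Dsc2, the median log2 difference of the list was -0.10 over both Control arrays and -0.87 over Control replicate 2 alone.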

How the data were processed

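Heart RNA from the groups above was hybridised by the authors after 3′-based labelling and scaled with MAS 5.0, so a signal reflects the 3′ end of a transcript and one probe set can miss an isoform. Arrays were grouped by their titles. The deposited intensity values are linear. No detection call or depth was used here, and the number of arrays limits the precision.

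Of 45101 probe sets, 64 controls were left out. The platform annotation gave 1 gene symbol to 34958 probe sets, several to 932 and none to 9211, and each of 18193 genes took the values of its brightest probe set, by mean log2 over the 4 arrays. The members and lists were chosen with earlier results of these data known, and roles and family lists after the values were seen. Named are all 34 members, genes just outside the thresholds, list genes that passed, and relatives. Log2 intensities were compared in R 4.3.3 by limma 3.58.1 (lmFit, then eBayes with an intensity trend), with Benjamini-Hochberg adjustment over all genes. The code was tested on simulated arrays. Since no source names separate animals, p-values reflect array-to-array spread alone, possibly technical. Lists for cell types and pathways were written from general knowledge. Promoter windows are those of RefSeq, build GRCm38.p6, matched by gene ID or symbol. Alternatives were other thresholds, quantile normalization, median centring, a pseudocount of 32, the mean of all probe sets, brighter genes alone, no trend, a replicate block, leaving out each array, and the methods' t-test. Tables and plots were made with Python 3.11.15, numpy 2.4.6, pandas 2.3.3 and matplotlib 3.10.9.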

Additional observations from a re-analysis of the deposited data

How the results depend on the processing

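The median difference of the 34 transcripts was 1.24 to 2.87 log2 units when 1 array was left out, the lowest without Control replicate 1. The number of genes that met the thresholds was 107 at a ratio of 1.5, 22 at a ratio of 2, 71 with a lowest Rhau KO value of 100 and 13 with one of 1000. Leaving out 1 array gave 69 to 1227, the highest without Control replicate 2, which leaves the array with skeletal muscle transcripts as the lone Control, and 85, 89 and 69 without Rhau KO replicate 2, Rhau KO replicate 1 and Control replicate 1. Median centring lowered the median difference of all genes by 0.12 and kept 23 of the 34. It lost Bdnf, Blvrb, Ccdc141, Dsc2, Gcnt1, Ift81, Maged2, Plekha7, Sybu, Tnni3k and Trabd2b. Quantile normalization kept 32 and the mean of all probe sets 17. That mean cannot change the 13 genes with 1 probe set. Of the 21 genes with several, it lost 17 and kept Apbb1, Bdnf, Dsc2 and Trabd2b. Genes past a 2-fold difference at an unadjusted p under 0.05 split with median centring into 233 higher and 378 lower, against 300 and 299. At these thresholds 599 genes passed by limma, 338 with a pseudocount of 32, 167 among the brighter genes and 351 by the methods' t-test, which called 0 after Benjamini-Hochberg adjustment, and leaving out 1 array gave 285 to 3282. Of the pathway list genes, 5 passed by limma, 2 with a pseudocount of 32, 1 among the brighter genes, 9 with the mean of all probe sets, 8 with no trend, 3 by the methods' t-test and 0 to 94 with 1 array left out (94 without Control replicate 2). The labels give both groups replicate numbers 1 and 2. Deviations of same-numbered arrays correlated at 0.01 over 9097 brighter genes. The muscle transcripts of Control replicate 1 enter this correlation, so it cannot show whether same-numbered arrays were paired. With the replicate block 634 genes and 11 list genes passed. Adjusted calls were 0 in each fit to 4 arrays and without either Rhau KO array, 149 without Control replicate 1 and 4097 without Control replicate 2, where the lone Control array has no spread of its own and takes that of the Rhau KO arrays. The cause of these changes was not tested.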
